A study of Mus musculus with 13 samples.

Results

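The nuclear genes that code for the machinery of oxidative phosphorylation were examined in mouse thymic lymphomas and normal thymus. The members are the protein-coding genes whose symbols begin with Nduf, Uqcr, Atp5 or Cox4 to Cox8, together with Sdha, Sdhb, Sdhc and Sdhd, and there were 92 of them among the 43629 genes of the expression table. RNA sequencing of poly(A) RNA had been done on 13 libraries. Of these, 3 came from the thymus of wild type (WT) C57BL/6 mice, 5 from thymic lymphomas of Atm-/- mice on a 129S6/SvEv background, which lack the ATM kinase of the DNA damage response, and 5 from thymic lymphomas of Rag2c/c p53-/- mice on a mixed C57BL/6 and 129S6/SvEv background, which lack p53 and carry the core form of RAG2 without its C-terminal part. Each lymphoma was a tumor of a separate mouse, no age was given, and the WT libraries had been made for an earlier series and were used again. Strain and series therefore went with the groups and cannot be told apart from genotype or from transformation, and both lymphoma groups were compared with the same 3 WT libraries.

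Oxidative phosphorylation takes place in the inner mitochondrial membrane. Complex I (NADH dehydrogenase) and complex II (succinate dehydrogenase) pass electrons to ubiquinone, complex III (cytochrome bc1) passes them to cytochrome c, and complex IV (cytochrome c oxidase) passes them to oxygen. Complexes I, III and IV pump protons, and complex V (ATP synthase) uses the gradient to make ATP. Most subunits are coded in the nucleus, and a few core subunits are coded in the mitochondrial genome, so that each complex is built from both sets with the help of assembly factors. In the thymus, resting T cells and dividing thymocytes differ in how much they draw on this pathway and on glycolysis.

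The values are library-size-normalized counts, rounded to whole numbers by the authors. Of the 92 members, 90 were above 0 in at least 1 library and 87 reached a normalized count of 10 in every library. A total of 89 passed the filter of at least 10 in at least 3 libraries and were tested, among 15872 genes of the table, by limma on the log2(normalized count + 1) scale. The members left out were Cox7b2 and Cox8c, which were listed at 0 in all 13 libraries, and Cox8b, which was at 11 in Atm-/- lymphoma replicate 4 and at 0 elsewhere. The tested members Cox4i2 and Ndufa4l2 reached 10 in 1 and 0 WT libraries and so entered through the lymphomas, where they are higher. Their values are given without a test, and the counts of members that passed or were called against WT thymus are also given without them. By role, 36 tested members were subunits of complex I, 4 of complex II, 8 of complex III, 16 of complex IV and 15 of complex V, and 10 were assembly factors or associated proteins. All 37 genes of the mitochondrial genome, including its 13 subunit genes, were listed at 0 in every library, so the mitochondrially coded part of the complexes is not measured here.

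The libraries differed in depth, which was estimated from the spacing of low values. The estimate ran from 6.67 to 39.58 M reads (M, mega) in WT thymus (median 34.05), from 9.23 to 23.64 M in Atm-/- lymphoma (median 13.52) and from 6.37 to 24.77 M in Rag2c/c p53-/- lymphoma (median 19.43). The targeted gene Atm ran from 208 to 732 normalized counts in the Atm-/- lymphomas, below the 1559 to 2274 of WT thymus, and from 439 to 1315 in the Rag2c/c p53-/- lymphomas. Trp53 ran from 2018 to 5461 in the Rag2c/c p53-/- lymphomas and from 4387 to 6341 in WT thymus, so that the gene-level count did not separate these groups, and Rag2 transcripts were at 260 to 790 there, at 46 to 1025 in the Atm-/- lymphomas, where Rag2 is not targeted, and at 4199 to 5409 in WT thymus, so that a low Rag2 count does not mark the Rag2c/c genotype. The T cell markers Cd3e, Cd3d, Cd3g, Lck, Thy1 and Cd2 summed to 61514 to 99921 in WT thymus, 56618 to 104050 in Atm-/- lymphoma and 52306 to 105966 in Rag2c/c p53-/- lymphoma, and none of the 6 passed the test in any of the 3 comparisons. All 5 Rag2c/c p53-/- lymphomas still lay below WT thymus in 2 of the 6 (24.2% of all genes). These were Cd2 (546 to 2945 against 4143 to 4973) and Cd3g (3621 to 6775 against 7179 to 11077). Cd2 ran from 1262 to 11765 in the Atm-/- lymphomas.

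The promoters of 3 members are shown because these genes changed in the comparisons that follow and their promoters hold a match to the site of NRF1, a transcription factor known to act on respiratory chain genes. Each is the stretch of 250 bases before the RefSeq start site in build GRCm38.p6, read in the direction of transcription, with matches on either strand in capitals, for NRF1 to the letters GCGCA, any base (N) and GCGC, and for the core ETS site bound by GABP to CCGGAAG. The NRF1 and ETS letters do not overlap each other in these windows. The Ndufs5 window is chr4:123718187-123718436 on the minus strand, the Cox6a1 window chr5:115348959-115349208 on the minus strand and the Ndufaf4 window chr4:24897833-24898082 on the plus strand. The last 16, 23 and 0 bases, respectively, lie inside the gene as the expression table delimits it.
Ndufs5: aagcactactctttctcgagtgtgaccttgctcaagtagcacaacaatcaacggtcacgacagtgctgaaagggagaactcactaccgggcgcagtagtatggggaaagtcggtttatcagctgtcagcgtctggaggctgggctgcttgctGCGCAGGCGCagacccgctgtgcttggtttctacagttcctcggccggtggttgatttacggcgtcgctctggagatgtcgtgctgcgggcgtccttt
Cox6a1: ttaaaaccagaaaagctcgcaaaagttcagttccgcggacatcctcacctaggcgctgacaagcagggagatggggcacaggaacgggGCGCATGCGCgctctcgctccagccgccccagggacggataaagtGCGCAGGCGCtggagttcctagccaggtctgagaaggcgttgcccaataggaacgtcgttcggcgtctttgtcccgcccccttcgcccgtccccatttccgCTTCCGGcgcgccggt
Ndufaf4: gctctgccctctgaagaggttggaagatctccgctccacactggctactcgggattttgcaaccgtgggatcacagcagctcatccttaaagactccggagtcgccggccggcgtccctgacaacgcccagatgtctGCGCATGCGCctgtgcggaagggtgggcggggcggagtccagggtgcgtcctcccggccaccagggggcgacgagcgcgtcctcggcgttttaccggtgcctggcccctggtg
Both strands of the 76 member promoters with a RefSeq entry were searched, and 13 of them (17.1%) held the NRF1 letters, against 5.3% of all 17492 promoters. The ETS letters were in 12 member promoters (15.8%, against 9.13%), and the YY1 letters AAGATG and GC in direct succession were in 0 member promoters, against 1.51% of all. At so low a share, 0 of 76 does not set the members apart from other genes. Bases after the RefSeq start were not searched. A match is a description of the letters and not a bound site.

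As a group, the members took a larger share of the library in every lymphoma than in any WT thymus. The summed share was 0.795%, 0.876% and 0.746% of all normalized counts in the 3 WT libraries, with a mean of 0.806% ± 0.066 (SD, n = 3). In Atm-/- lymphoma the shares were 1.048%, 1.544%, 1.332%, 1.312% and 1.093%, with a mean of 1.266% ± 0.201 (SD, n = 5). In Rag2c/c p53-/- lymphoma they were 0.944%, 1.723%, 0.959%, 1.366% and 1.086%, with a mean of 1.216% ± 0.33 (SD, n = 5). The lowest lymphoma share lay above the highest WT share, and the lymphoma groups overlapped over nearly their whole range. Depth moved with these shares. The shares of 1.723% and 1.544% belonged to the shallowest library of each lymphoma group (6.37 and 9.23 M reads), and the lymphomas of 19.43 to 24.77 M reads had shares of 0.944% to 1.093%. The WT library of 6.67 M reads had a share of 0.876%, below every lymphoma at any depth. The part of depth in the differences was not tested beyond the alternatives given with the counts. In bulk RNA, more cells of a type and more RNA per cell cannot be told apart.

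**Figure D1:**
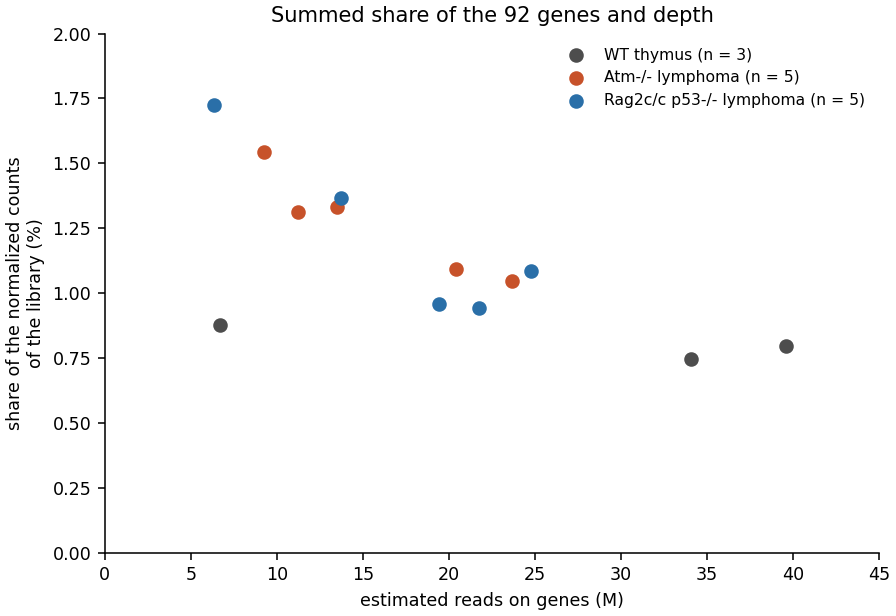
Summed share of the 92 genes in each library (y axis, % of all normalized counts) against the estimated depth (x axis, M reads on genes), with 1 point per library and colors for the 3 groups. All 10 lymphomas lie at 0.944% or above and the 3 WT libraries at 0.876% or below, and the highest shares are in the shallower lymphoma libraries.

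Against WT thymus, 50 of the 89 tested members rose in Atm-/- lymphoma and 3 fell at a limma adjusted p under 0.05 (Benjamini-Hochberg over all 15872 genes). Over all genes tested, 21.0% passed as higher and 23.6% as lower, and 25.1% passed as higher among genes with a mean of at least 500 normalized counts, a level that 79 of the 89 members reached. The members' median log2 fold change was 0.68 (1.6-fold), against -0.02 over all genes, and 82 of 89 estimates were above 0. When a 2-fold change and a mean of 10 in either group were also required, 18 members were called higher and 1 lower, where 12.6% and 17.0% of all genes were called, and 9.64% were called higher among genes of at least 500. Without Cox4i2 and Ndufa4l2, 48 of 87 rose, 16 were called higher and the median was 0.67. Most members that passed therefore changed by under 2-fold. All 5 lymphomas lay above all 3 WT libraries in 55 members (23.4% of all genes) and below them in 2 (27.9% of all genes). Cox4i2 and Ndufa4l2, which entered through the lymphomas, are among the 55 and among the 82 estimates above 0. The count of 53 members past the test dropped to 27 without WT replicate 1 and to 25 without WT replicate 3. With depth as a covariate it was 51, and with the 7 libraries of at least 15 M reads alone it was 50, but the median fell to 0.49 and 0.45 and the called members to 10 and 9. Those 7 are WT replicates 1 and 3, Atm-/- replicates 1 and 5 and Rag2c/c p53-/- replicates 1, 3 and 5. The shallow WT replicate 2 is thus left out, and few libraries remain per group.

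In Rag2c/c p53-/- lymphoma, 30 of 89 members rose against WT thymus and 0 fell by the same limma test, where 17.5% of all genes passed as higher and 19.7% as lower, and 21.6% as higher among genes of at least 500. At an unadjusted p under 0.05 the same limma fit gave 47 higher and 0 lower, against 22.4% and 24.9% of all genes, and 7 members had an estimate below 0. The median log2 fold change was 0.58 (1.49-fold), against -0.02 over all genes. A total of 10 members were called higher at 2-fold or more, where 9.77% of all genes and 7.43% of genes of at least 500 were called, and 0 lower, where 13.9% of all genes were called. Without Cox4i2 and Ndufa4l2, 30 of 87 rose, 10 were called higher and the median was 0.56. The groups did not overlap in 33 members that were higher (19.7% of all genes) and in 1 that was lower (24.2% of all genes). The count of 30 dropped to 12 without WT replicate 1, to 10 without WT replicate 3 and to 19 when the Atm-/- lymphomas were left out of the fit. The 10 called members became 6 without WT replicate 3 and 4 without Rag2c/c p53-/- replicate 2, the library of 6.37 M reads. With depth as a covariate 38 members rose, and with the 7 deeper libraries 37 rose and Cox7a2l fell, but the median fell to 0.44 and 0.33 and 6 and 8 were called.

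Compared with each other, the lymphoma groups differed in 2 of the 89 members, Ndufs5 and Cox6a2, both lower in Atm-/- lymphoma by the limma test, and 0 were higher (6 higher and 4 lower at an unadjusted p under 0.05, where 12.4% and 13.8% of all genes were). Over all genes 6.48% passed as lower and 5.13% as higher, and the median log2 difference (Atm-/- minus Rag2c/c p53-/-) was 0.11 for the members and 0.02 for all genes. Both members were also called at 2-fold or more, where 4.33% of all genes were called lower and 3.51% higher. All Atm-/- lymphomas lay below all Rag2c/c p53-/- lymphomas in 1 member, Ndufs5 (4.48% of all genes), and above them in 0 (3.85%).

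**Figure D2:**
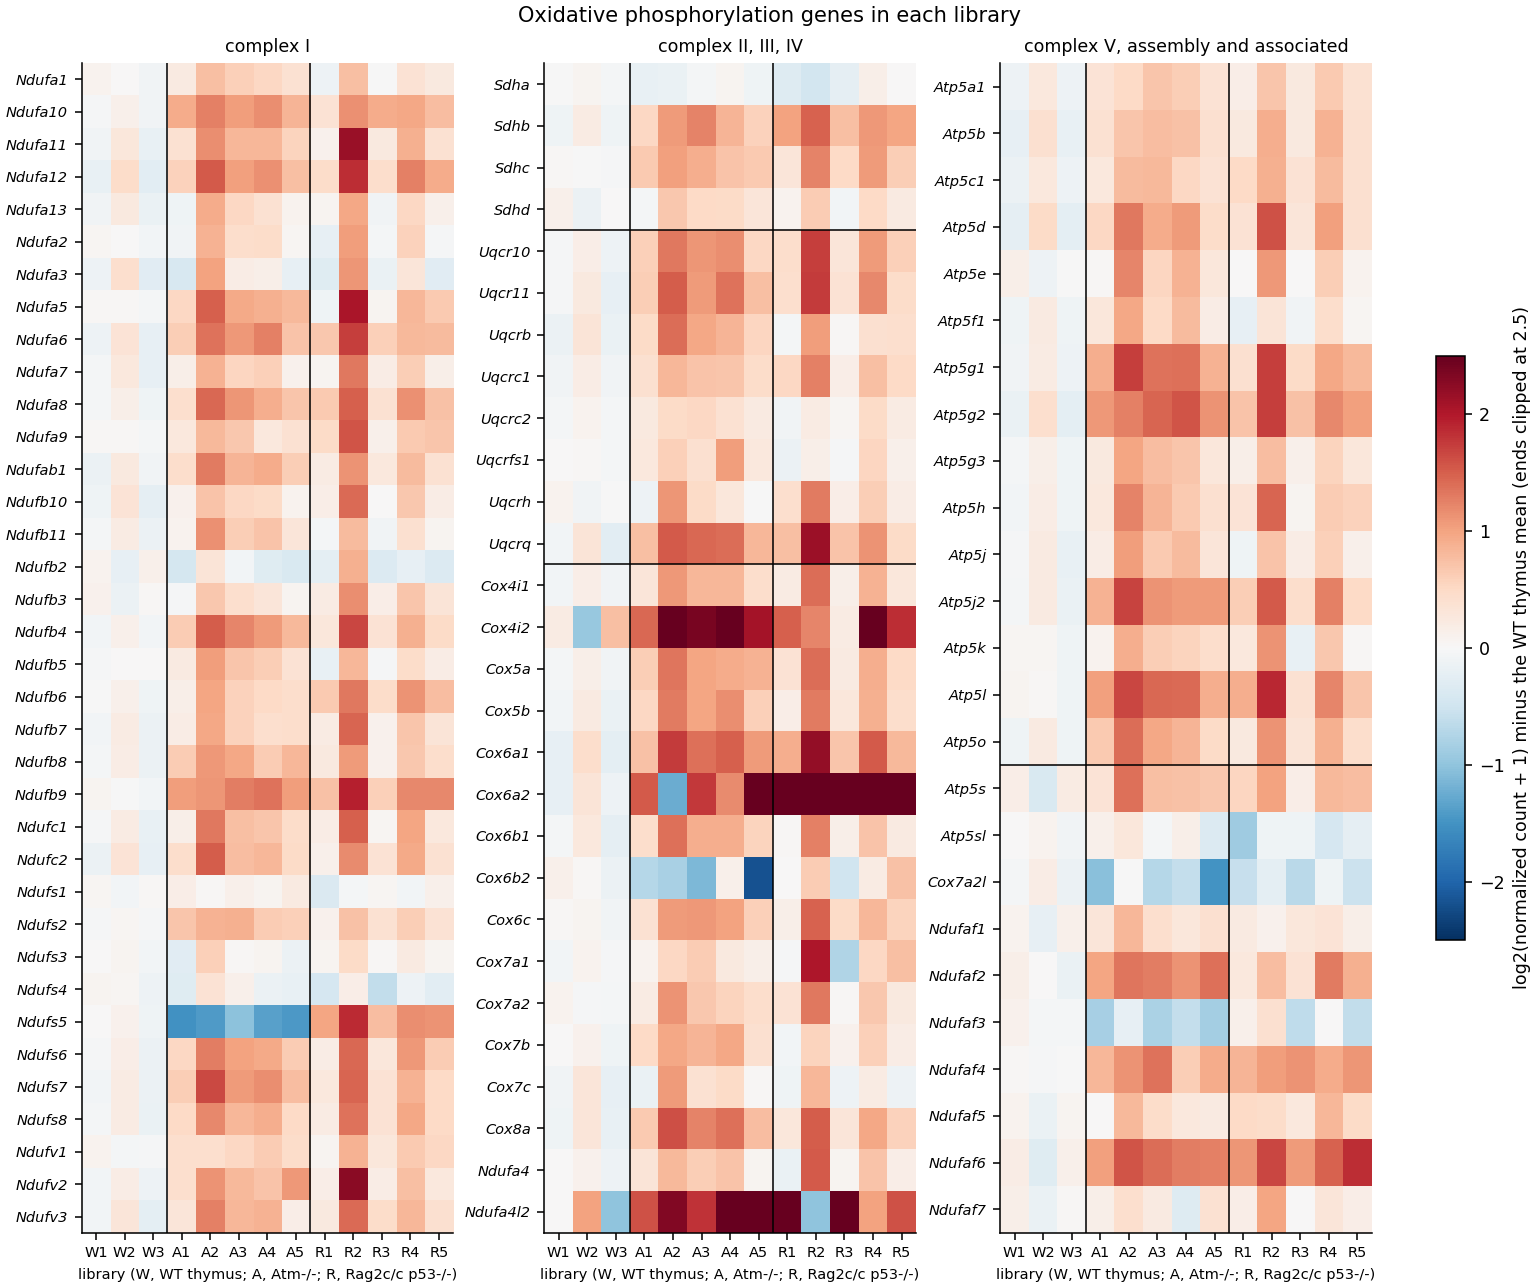
Difference of each of the 89 tested genes from its WT mean (color, log2 of the normalized count plus 1, clipped at 2.5), with 1 column per library (W, WT thymus; A, Atm-/-; R, Rag2c/c p53-/-) and genes ordered by complex. Most genes are red in the lymphomas, deepest in Rag2c/c p53-/- replicate 2, and Ndufs5 is blue in all 5 Atm-/- and red in all 5 Rag2c/c p53-/- lymphomas.

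Complex I was the largest set, and 15 of its 36 subunit genes rose and 1 fell in Atm-/- lymphoma, with a median log2 fold change of 0.63. In Rag2c/c p53-/- lymphoma 12 rose, with a median of 0.58. The shares that rose were 41.7% and 33.3%, where 21.0% and 17.5% of all genes passed as higher. Among genes of at least 500, 25.1% and 21.6% did. As lower, 23.6% of all genes passed in Atm-/- lymphoma. The gene that fell was Ndufs5 (ENSMUSG00000028648), an accessory subunit coded at chr4:123712710-123718202 in GRCm38. Its normalized counts were 666, 715 and 612 in WT thymus, then 231, 247, 326, 258 and 245 in Atm-/- lymphoma and 1319, 2408, 1133, 1481 and 1454 in Rag2c/c p53-/- lymphoma. The 3 groups did not overlap, with Atm-/- lymphoma lowest and Rag2c/c p53-/- lymphoma highest. The log2 fold change against WT was -1.35 ± 0.22 (SE, limma adjusted p = 0.00033) in Atm-/- lymphoma and 1.18 ± 0.22 (adjusted p = 0.00112) in Rag2c/c p53-/- lymphoma, and the difference between the lymphomas was -2.53 ± 0.19 (adjusted p = 2.7e-06), a 5.79-fold lower level in Atm-/- lymphoma. These 3 results kept their direction and side of the threshold in every alternative run, including those for depth.

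No other complex I subunit differed between the lymphoma groups at the threshold. Ndufb9, an accessory subunit of the membrane arm, was at 1143 to 1263 in WT thymus, 2471 to 3059 in Atm-/- lymphoma and 1804 to 4644 in Rag2c/c p53-/- lymphoma. The log2 fold changes of Ndufb9 were 1.17 ± 0.24 (limma adjusted p = 0.00174) and 1.14 ± 0.24 (adjusted p = 0.00271). Ndufv1, which holds the flavin that accepts electrons from NADH, rose by 0.49 and 0.48, but did not pass in 5 and 9 of the 23 alternatives, among them the 7 deeper libraries (0.41 and 0.27, limma adjusted p = 0.0704 and 0.176). Ndufab1, the mitochondrial acyl carrier protein, rose by 0.83 in Atm-/- lymphoma (limma adjusted p = 0.0109) and had an estimate of 0.55 in Rag2c/c p53-/- lymphoma that did not pass (adjusted p = 0.0767). The iron-sulfur core subunit Ndufs1 and the accessory subunit Ndufs4 did not pass in either lymphoma, with estimates of 0.12 and -0.03 in Atm-/- and of -0.05 and -0.25 in Rag2c/c p53-/- lymphoma. Ndufs1 was at 2202 to 2394 in WT thymus, 2357 to 2719 in Atm-/- and 1819 to 2548 in Rag2c/c p53-/- lymphoma. It overlaps Eef1b2 in the annotation, a highly expressed gene (mean 7303.8 normalized counts over the 13 libraries). Members that passed and members that did not thus stood side by side in this complex.

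Of the 4 genes of succinate dehydrogenase, 2 rose in each lymphoma, with median log2 fold changes of 0.58 in Atm-/- and 0.51 in Rag2c/c p53-/- lymphoma. Over all genes, 21.0% and 17.5% passed as higher. Sdhb, the iron-sulfur subunit, was at 2473, 3047 and 2474 in WT thymus, 3771, 5583, 6270, 4755 and 3958 in Atm-/- lymphoma and 5324, 7390, 4489, 5591 and 5273 in Rag2c/c p53-/- lymphoma. Every lymphoma lay above every WT library, with log2 fold changes of 0.85 ± 0.19 (limma adjusted p = 0.00342) and 1.06 ± 0.19 (adjusted p = 0.00106). Sdhc, a membrane anchor, rose by 0.79 and 0.75 in the lymphoma groups. Sdha, the flavoprotein that binds succinate, was at 5348 to 5730 in WT thymus, 4855 to 5742 in Atm-/- lymphoma and 4005 to 6095 in Rag2c/c p53-/- lymphoma. Its groups overlapped, with estimates of -0.09 ± 0.14 (limma adjusted p = 0.638) and -0.17 ± 0.14 (adjusted p = 0.37). The other anchor gene, Sdhd, had estimates of 0.38 and 0.28 that did not pass.

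In complex III, 7 of 8 genes rose in Atm-/- lymphoma (median log2 fold change 0.73) and 4 of 8 in Rag2c/c p53-/- lymphoma (median 0.59). Uqcrq, a small membrane subunit, was at 1393, 1829 and 1205 in WT thymus, 2462, 4209, 3933, 3821 and 2591 in Atm-/- lymphoma and 2455, 6366, 2392, 3186 and 2032 in Rag2c/c p53-/- lymphoma. The lymphomas lay above WT in both groups, with log2 fold changes of 1.19 ± 0.32 (limma adjusted p = 0.00913) and 1.04 ± 0.32 (adjusted p = 0.0217). The core protein gene Uqcrc1 rose by 0.62 and 0.64, and did not pass in 2 and 3 of the 23 alternatives. Without WT replicate 1 or 3, Uqcrq in Rag2c/c p53-/- lymphoma was at 1.01 or 0.91 and did not pass (limma adjusted p = 0.0736 and 0.099). Uqcrfs1, the Rieske iron-sulfur protein, rose by 0.51 in Atm-/- lymphoma (limma adjusted p = 0.0462), while its estimate of 0.13 in Rag2c/c p53-/- lymphoma did not pass (adjusted p = 0.633). The rise of Uqcrfs1 passed narrowly and was lost in 12 of the 23 alternatives, among them depth as a covariate (0.45, limma adjusted p = 0.0704) and the 7 deeper libraries (0.27, adjusted p = 0.118). The difference between the lymphomas for Uqcrfs1, 0.38 ± 0.17, did not pass either (limma adjusted p = 0.165).

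In complex IV, 10 of 16 tested genes rose in Atm-/- lymphoma (median log2 fold change 0.83) and 4 of 16 in Rag2c/c p53-/- lymphoma (median 0.60). The 10 are 62.5% of the set, where 21.0% of all genes and 25.1% of genes of at least 500 passed as higher. The 4 are 25.0% of the set, near the 21.6% of genes of at least 500 that passed as higher. Without Cox4i2 and Ndufa4l2 the counts were 8 and 4 of 14 (medians 0.78 and 0.55). Cox6a1, the widely expressed form of subunit 6a, was at 2279, 3544 and 2212 in WT thymus, 4363, 8781, 6829, 7393 and 5496 in Atm-/- lymphoma and 4901, 11949, 4201, 7526 and 4590 in Rag2c/c p53-/- lymphoma. Both lymphoma groups lay wholly above WT, by 1.29 ± 0.33 (limma adjusted p = 0.00634) and 1.22 ± 0.33 (adjusted p = 0.0104) on the log2 scale. Without WT replicate 1 or 3, the second value was 1.12 or 1.1 and did not pass (limma adjusted p = 0.0515 and 0.0554). Cox5a, a subunit on the matrix side, rose by 0.94 and 0.67. The second value of Cox5a did not pass in 7 of the 23 alternatives, among them each fit without 1 WT library (limma adjusted p = 0.116, 0.0682 and 0.125). Cox8a, a small subunit, rose by 1.13 in Atm-/- lymphoma (limma adjusted p = 0.00629) and had an estimate of 0.73 in Rag2c/c p53-/- lymphoma (adjusted p = 0.0598). Cox4i1, the widely expressed form of subunit 4, rose by 0.69 in Atm-/- lymphoma, a call lost in 13 of the 23 alternatives, and had an estimate of 0.58 in Rag2c/c p53-/- lymphoma that did not pass (limma adjusted p = 0.106).

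Several complex IV subunits exist as tissue isoforms, and Cox6a2 stood out among them. It (ENSMUSG00000030785, chr7:128205436-128206366) is the form of subunit 6a known from heart and skeletal muscle. Its normalized counts were 38, 55 and 40 in WT thymus, 128, 18, 152, 100 and 577 in Atm-/- lymphoma and 1759, 5221, 1638, 544 and 2344 in Rag2c/c p53-/- lymphoma. All 5 Rag2c/c p53-/- lymphomas lay above WT, by a log2 fold change of 5.34 ± 0.86 (40.4-fold, limma adjusted p = 0.00046). The Atm-/- lymphomas overlapped WT (1.39 ± 0.86, limma adjusted p = 0.2) and, through replicates 5 and 4 of the respective groups, the Rag2c/c p53-/- lymphomas. The difference between the lymphomas was -3.95 ± 0.74 (limma adjusted p = 0.0043). Per length of transcript (the median of the annotated coding transcripts), Cox6a2 made up 1.29% to 1.5% of the sum of Cox6a1 and Cox6a2 in WT thymus, 0.172% to 8.1% in Atm-/- lymphoma and 5.72% to 30% in Rag2c/c p53-/- lymphoma, so that Cox6a1 was the more abundant in all 13 libraries. The muscle markers Myh1, Myh2, Acta1, Ckm, Tnnt3 and Mb summed to 20 to 203 normalized counts in the Rag2c/c p53-/- lymphomas, with Myh1 at 0, to 37 to 559 in the Atm-/- lymphomas, with Myh1 and Myh2 at 0, and to 84 to 123 in WT thymus. Ckm, the muscle creatine kinase, was at 553, 297, 19, 9 and 250 in the Atm-/- lymphomas, 1, 3, 140, 3 and 2 in the Rag2c/c p53-/- lymphomas and 4, 3 and 2 in WT thymus. Tnnt3 went the other way and made up most of the WT sums, at 112, 78 and 116. It was at 2, 5, 8, 2 and 3 in the Atm-/- lymphomas and at 11, 17, 53, 12 and 44 in the Rag2c/c p53-/- lymphomas. The sums are therefore not a measure of muscle RNA across the groups. In Atm-/- replicates 1 to 5 the sums were 559, 316, 39, 37 and 265, mostly Ckm in replicates 1, 2 and 5, beside Cox6a2 at 128, 18, 152, 100 and 577. The part of muscle RNA in the Atm-/- values was not tested. Itgad, which overlaps Cox6a2 in the annotation, had a mean of 60.5 over all libraries. The test of Cox6a2 against WT in Rag2c/c p53-/- lymphoma and the test between the lymphomas passed in every alternative run, but Cox6a2 in Atm-/- lymphoma passed without Atm-/- replicate 2 (2.04, limma adjusted p = 0.0275) and among the 7 deeper libraries (2.77, adjusted p = 0.0137).

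Of the other isoforms, Cox4i2, Ndufa4l2 and Cox7a1 were at low levels. Cox4i2, the subunit 4 form known from lung and low oxygen, was at 8, 3 and 12 in WT thymus, 20, 100, 39, 162 and 32 in Atm-/- lymphoma and 21, 17, 8, 91 and 27 in Rag2c/c p53-/- lymphoma. All 5 Atm-/- lymphomas lay above WT thymus, and the Rag2c/c p53-/- lymphomas overlapped it. Ndufa4l2, the form of Ndufa4 known from hypoxia, was at 1, 3 and 0 in WT thymus, 5, 9, 6, 152 and 21 in Atm-/- lymphoma and 11, 0, 18, 3 and 5 in Rag2c/c p53-/- lymphoma. Its highest value, in Atm-/- replicate 4, stood far above the others, and 9 of the 13 libraries were below 10. Ndufa4l2 overlaps Shmt2, whose mean was 9818.5, in the annotation. The fibroblast markers Col1a1, Col1a2 and Col3a1 rose in both lymphoma groups, with Col1a2 at 23 to 37 in WT thymus, 2099 to 6874 in Atm-/- and 243 to 517 in Rag2c/c p53-/- lymphoma. Pdgfra was at 1 to 3, 5 to 60 and 6 to 174 in these groups. Of the endothelial markers, Pecam1 passed in neither group (0.43, limma adjusted p = 0.279, and 0.05, adjusted p = 0.911), and Cdh5 was lower in Rag2c/c p53-/- lymphoma (-2.93, adjusted p = 0.0183) and did not pass in Atm-/- lymphoma (-1.41, adjusted p = 0.202). All 6 summed to 3673 to 3812 in WT thymus, 7509 to 18429 in Atm-/- lymphoma and 2936 to 6138 in Rag2c/c p53-/- lymphoma, and their part in these isoform values was not tested. Cox6b2, a form known from testis, was at 288 to 352 in WT thymus, 70 to 350 in Atm-/- lymphoma and 227 to 536 in Rag2c/c p53-/- lymphoma. It passed in none of the comparisons with all libraries. Between the lymphomas its estimate was -1.16 ± 0.36 (limma adjusted p = 0.0545). This passed in some alternatives, among them the fit without Atm-/- replicate 4 (-1.43, adjusted p = 0.0199). There the value against WT thymus passed too (-1.21, adjusted p = 0.023). Per length of transcript, its share of the sum with Cox6b1 was 11.7% to 15.1% in WT thymus. It was 2.28% to 8.41% in Atm-/- and 9.14% to 18.3% in Rag2c/c p53-/- lymphoma, which was not tested. Cox7a1, the muscle form of subunit 7a, was at 38 to 42, 42 to 62 and 23 to 165 in the 3 groups and did not pass.

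**Figure D3:**
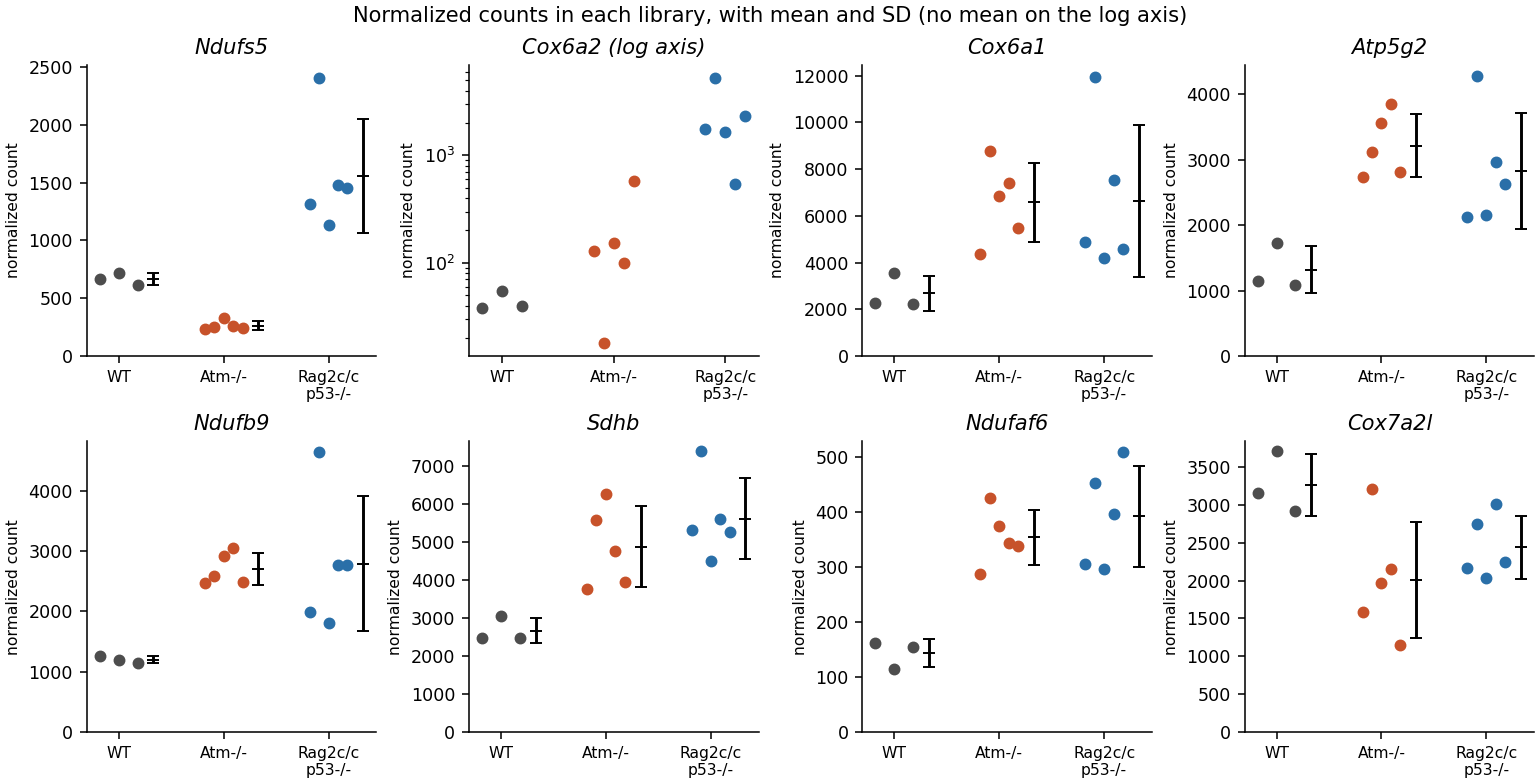
Normalized counts (y axis) of 8 genes in each library of WT thymus, Atm-/- and Rag2c/c p53-/- lymphoma (x axis), with 1 point per library and bars for the mean and SD except on the log axis of Cox6a2. Ndufs5 is lower than WT in Atm-/- and higher in Rag2c/c p53-/- lymphoma, Cox6a2 is at 544 or above in Rag2c/c p53-/- lymphoma and at 577 or below elsewhere, and Cox7a2l has a lower mean in Atm-/- lymphoma, with overlap.

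ATP synthase genes rose widely in Atm-/- lymphoma, where 12 of 15 passed as higher (median log2 fold change 0.60). In Rag2c/c p53-/- lymphoma 5 of 15 passed as higher (median 0.59), and all 15 estimates were above 0 in both groups. The counts are 80.0% and 33.3% of the set, where 21.0% and 17.5% of all genes passed as higher. Among genes of at least 500, 25.1% and 21.6% did. Atp5g1, Atp5g2 and Atp5g3 code for the same mature subunit c of the proton-driven rotor. Atp5g2 was at 1149, 1728 and 1084 in WT thymus, 2733, 3108, 3561, 3854 and 2811 in Atm-/- lymphoma and 2123, 4276, 2149, 2967 and 2629 in Rag2c/c p53-/- lymphoma. Both lymphoma groups lay above WT, with log2 fold changes of 1.30 ± 0.23 (limma adjusted p = 0.00067) and 1.08 ± 0.23 (adjusted p = 0.00301). Atp5g1 rose by 1.25 and 0.88, of which the second did not pass without WT replicate 1 or 3 (limma adjusted p = 0.0831 and 0.0906), and Atp5g3 by 0.60 in Atm-/- lymphoma, with an estimate of 0.38 in Rag2c/c p53-/- lymphoma that did not pass. Per length of transcript, the part of Atp5g2 in the sum of the 3 subunit c genes was 29% to 35.3% in WT thymus, 33.4% to 43.6% in Atm-/- lymphoma and 39.5% to 43.8% in Rag2c/c p53-/- lymphoma. The part of Atp5g3 was 55.8% to 61.7%, 45.3% to 53% and 43.4% to 51.2% in the same groups, and lay lower in every lymphoma than in any WT library. Atp5l, subunit g of the membrane part, rose by 1.29 and 1.01, with 360 to 405 normalized counts in WT thymus, 728 to 1238 in Atm-/- and 505 to 1425 in Rag2c/c p53-/- lymphoma. The catalytic-head genes Atp5a1 and Atp5b, among the most abundant members, rose by 0.50 and 0.60 in Atm-/- lymphoma, calls lost in 3 and 4 of the 23 alternatives. Atp5g3 lost its call in 3 of them. The estimates of Atp5a1 and Atp5b in Rag2c/c p53-/- lymphoma, 0.42 and 0.53, did not pass (limma adjusted p = 0.0532 and 0.0527).

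**Figure D4:**
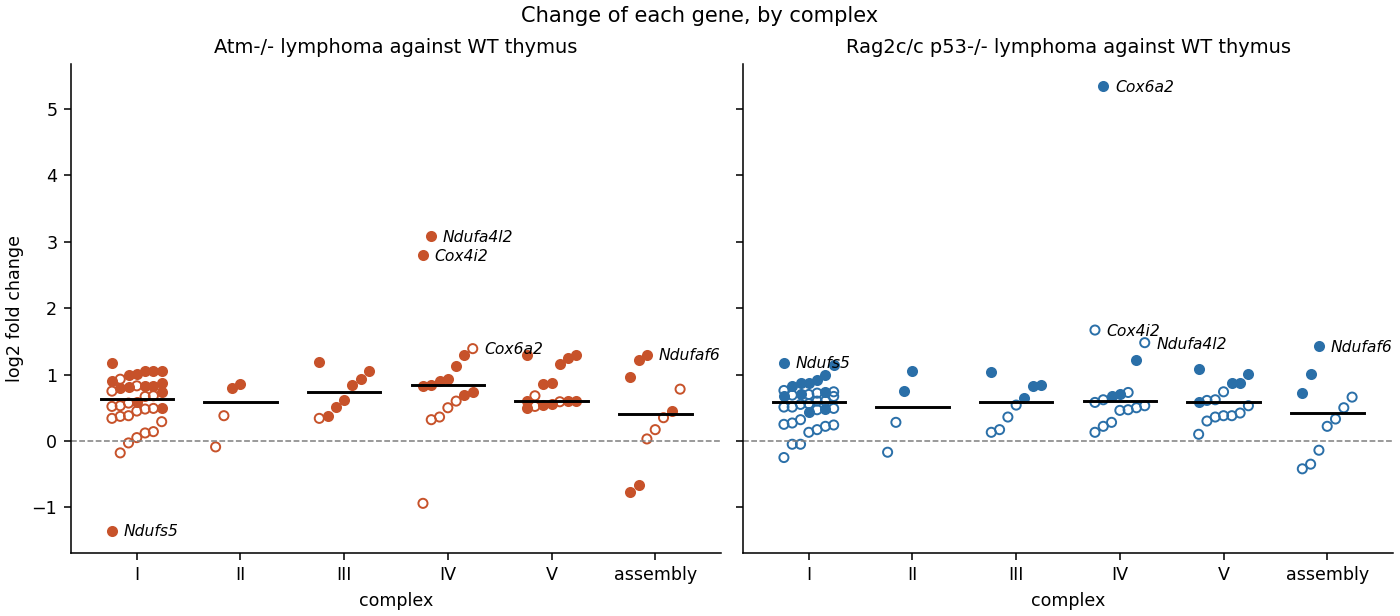
Log2 fold change of each tested gene against WT thymus (y axis) by complex (x axis) in Atm-/- lymphoma (left) and Rag2c/c p53-/- lymphoma (right), with filled points for a limma adjusted p under 0.05 and bars at the median of each complex. The medians of complexes I to V lie between 0.58 and 0.83 on the left and between 0.51 and 0.60 on the right, with Ndufs5 lowest on the left and Cox6a2 highest on the right. Complex IV includes Cox4i2 and Ndufa4l2.

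Among the 10 assembly factors and associated proteins, 4 rose and 2 fell in Atm-/- lymphoma (median log2 fold change 0.40), and 3 rose in Rag2c/c p53-/- lymphoma (median 0.42). Of all genes, 21.0% passed as higher and 23.6% as lower in Atm-/- lymphoma, and 17.5% as higher in Rag2c/c p53-/- lymphoma. The 2 that fell are thus near the share over all genes. Ndufaf4 and Ndufaf6, assembly factors of complex I, changed in both. Ndufaf4 was at 591 to 614 in WT thymus, 919 to 1528 in Atm-/- lymphoma and 1076 to 1303 in Rag2c/c p53-/- lymphoma, with log2 fold changes of 0.97 ± 0.16 (limma adjusted p = 0.00042) and 1.01 ± 0.16 (adjusted p = 0.00045). Ndufaf6 was at 114 to 162 in WT thymus, 288 to 425 in Atm-/- lymphoma and 297 to 509 in Rag2c/c p53-/- lymphoma, with log2 fold changes of 1.30 ± 0.24 (limma adjusted p = 0.00074) and 1.43 ± 0.24 (adjusted p = 0.00056). Unlike most members, Ndufaf4 was not highest in the shallowest library of either lymphoma group. Ndufaf2, another complex I assembly factor, rose by 1.22 and 0.72, of which the second did not pass in 4 of the 23 alternatives. Cox7a2l, which joins complexes III and IV into supercomplexes, was at 3153, 3710 and 2915 in WT thymus, 1581, 3204, 1965, 2149 and 1152 in Atm-/- lymphoma and 2038 to 3012 in Rag2c/c p53-/- lymphoma. It fell by 0.77 on the log2 scale in Atm-/- lymphoma (limma adjusted p = 0.0276), with overlap of the groups, and did not pass without WT replicate 1, 2 or 3 or Atm-/- replicate 1 (adjusted p = 0.0702, 0.103, 0.054 and 0.0552). Ndufaf3, also a complex I assembly factor, was at 575 to 646 in WT thymus and 333 to 521 in Atm-/- lymphoma (-0.66 ± 0.25, limma adjusted p = 0.0475), which passed narrowly and was lost in 10 of the 23 alternatives. Ndufaf3 overlaps Impdh2, with a mean of 5649.8, in the annotation.

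The members lie on 19 chromosomes. On chromosome 15, the 4 members Cox6c, Ndufb9, Ndufa6 and Atp5g2 all rose in both lymphoma groups, with median log2 fold changes of 1.09 in Atm-/- and 1.0 in Rag2c/c p53-/- lymphoma. All 583 tested genes of that chromosome had a median of 0.39 in each group. On chromosome 4, the 6 members Sdhb, Ndufaf4, Ndufs5, Ndufaf6, Uqcrh and Ndufb6 had medians of 0.69 and 1.04, against 0.11 and 0.37 over the 1011 genes of the chromosome. Their excess over the chromosome was not tested.

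Other genes of the pathway, from lists that the name rule does not cover, stand beside the members as follows. Cyc1, the cytochrome c1 subunit of complex III, was at 2450 to 2511 in WT thymus, 5175 to 6213 in Atm-/- lymphoma and 4247 to 6866 in Rag2c/c p53-/- lymphoma (1.19 ± 0.15, limma adjusted p = 7.2e-05, and 1.08 ± 0.15, adjusted p = 0.00022). Cycs, the electron carrier between complexes III and IV, rose by 0.94 in Atm-/- lymphoma (limma adjusted p = 0.00816). Its value in Rag2c/c p53-/- lymphoma, 0.69, passed narrowly (limma adjusted p = 0.042) and was lost in 14 of the 23 alternatives. Of 6 tested subunit and partner genes outside the name rule, 2 rose in Atm-/- and 4 in Rag2c/c p53-/- lymphoma. Of 28 assembly factors outside the rule, 9 rose and 1 fell in Atm-/- lymphoma and 8 rose in Rag2c/c p53-/- lymphoma. These are 32.1% and 28.6% as higher, where 21.0% and 17.5% of all genes passed as higher. The gene that fell, Lyrm7, helps to insert the Rieske protein into complex III (-1.49 ± 0.25, limma adjusted p = 0.00042). Of 75 mitochondrial ribosomal protein genes, 55 rose in Atm-/- lymphoma (median 0.75) and 38 in Rag2c/c p53-/- lymphoma (median 0.66). Of 16 genes of the tricarboxylic acid cycle and pyruvate dehydrogenase, 9 and 8 rose, and Pdha1 fell in Rag2c/c p53-/- lymphoma (-0.58). All 15 genes of a list of mitochondrial channels, import proteins, chaperones and carriers rose in Atm-/- lymphoma and 8 in Rag2c/c p53-/- lymphoma. Of 13 tested regulators of mitochondrial biogenesis, 4 rose in each lymphoma (30.8%), and Yy1 fell in Atm-/- lymphoma (-0.94). The median log2 fold changes of this list were near 0, at -0.10 and 0.08, with 7 and 5 estimates below 0. Myc, a transcription factor known to act on many mitochondrial genes, rose from 2495 to 2985 in WT thymus to 5936 to 11860 in Atm-/- and 5968 to 8055 in Rag2c/c p53-/- lymphoma (1.62 and 1.38). Ppargc1b rose by 0.87 and 0.91, Ppargc1a was at 4 or below in every library, and Nrf1, Gabpa and Tfam passed in neither lymphoma.

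The cell makeup of the samples differed beside these values. The dividing-cell markers Mki67, Top2a, Ccnb1, Cdk1, Aurkb and Birc5 summed to 34639 to 40460 in WT thymus, 30957 to 62346 in Atm-/- lymphoma and 38384 to 50690 in Rag2c/c p53-/- lymphoma, with overlap. Of the 6, 5 and 3 passed as higher in the lymphoma groups, where 21.0% and 17.5% of all genes did. Mki67 passed in neither (0.02, limma adjusted p = 0.973, and -0.15, adjusted p = 0.734). B cell markers summed to 1446 to 1770, 103 to 272 and 92 to 506 in the same groups. Myeloid markers summed to 3285 to 3606, 6125 to 10344 and 3620 to 7490. Thymic epithelial markers summed to 725 to 1058, 189 to 609 and 287 to 1320, and erythroid markers to 1003 to 2209, 881 to 6327 and 798 to 4360. Of the 6 thymic epithelial markers, 4 passed as lower in each lymphoma (median log2 fold changes -2.07 and -2.76), where 23.6% and 19.7% of all genes did. Their sum in Rag2c/c p53-/- lymphoma rested largely on Epcam, at 22 to 875 there and 221 to 283 in WT thymus, and on Ccl25, at 227 to 429 and 260 to 296. The part of these cell types in the members' differences was not tested.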

How the data were processed

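RNA was prepared from single-cell suspensions, and stranded mRNA libraries were sequenced with paired ends. Per the paper's methods and the submitters' processing notes, which are taken to hold for all 13 libraries, the authors converted reads with bcl2fastq 1.8.3, aligned them with STAR 2.4.0g1, removed duplicates with Picard, counted uniquely mapped reads per gene with HTSeq-count and normalized the counts with DESeq2 1.6.3. What the authors deposited is a whole-number score per gene and library, the read count over the library's DESeq2 size factor after rounding, so it is not a raw count and no count model was run. Coordinates are those of the table (GRCm38, Ensembl annotation). Whether counting used strand is not given in the sources used here. Columns with the authors' fold changes, p-values and dispersions were not used, nor was the overall mean column.

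A minimum of 10 in 3 or more libraries left 15872 genes, which were compared on log2(value + 1) with limma 3.58.1 in R 4.3.3 (linear model over 3 groups, trended and robust moderation, two-sided, Benjamini-Hochberg over all genes tested). A gene passed at an adjusted p under 0.05, and was called when the absolute log2 fold change was also 1 or more and either group mean 10 or more. A fold change on this scale understates that of low genes. The procedure was tested on simulated data first. Totals ran from 19788898 to 21591289. What 1 read is worth, and from it the depth, was estimated from the spacing of low values, from 0.5 to 3.375 normalized counts. Replicate numbers follow accession order. Each p-value sets a difference of group means against the spread between libraries within groups, estimated over all 3 groups together. Alternatives were other pseudocounts, filters, scalings and variance settings, only the groups compared, each library left out in turn, and, chosen after seeing the data, depth as a covariate and the 7 libraries of at least 15 M reads.

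The members, gene lists and tests were chosen with earlier results of these data known. Members were named when called (at most the 10 with the largest change) or among the 5 highest or 5 lowest that passed, with core subunits, tissue isoforms and their counterparts, and the subunit c genes fixed. Other pathway genes were named from a fixed set and as the 2 highest and 2 lowest of each list; a gene so named is not reported here. Sdhc, Sdhd and the members named by chromosome or promoter were added after their values were seen. RefSeq promoters were found for 76 of 92 members, and transcript lengths came from GENCODE release M21. Processed pseudogenes whose names match (3) were left out, with at most 10 normalized counts in any library.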

Additional observations from a re-analysis of the deposited data

Results flagged for a closer look

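Among 38 named members and 70 pairs of member and lymphoma group, 6 pairs had a library whose gap to the nearest other exceeded Dixon's limit, which chance gives in about 1 of 20 groups. In Atm-/- lymphoma these were Ndufs5 at 326 in replicate 3, Cox6a2 at 577 in replicate 5 and Ndufa4l2 at 152 in replicate 4. In Rag2c/c p53-/- lymphoma they were Ndufs5 at 2408 and Uqcrq at 6366, both in replicate 2, the shallowest library, and Cox4i2 at 91 in replicate 4.

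The response of 2 members differed between the lymphoma groups by limma's test of the difference itself. For Ndufs5 the log2 difference (Atm-/- minus Rag2c/c p53-/-) was -2.53 (adjusted p = 2.7e-06), with all 5 Atm-/- lymphomas below WT thymus and all 5 Rag2c/c p53-/- lymphomas above it. For Cox6a2 it was -3.95 (limma adjusted p = 0.0043), with all 5 Rag2c/c p53-/- lymphomas and 4 of 5 Atm-/- lymphomas above WT.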

How the results depend on the processing

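No result past its threshold changed sign under the alternatives run. The members' median log2 fold change stayed between 0.57 and 0.78 in Atm-/- lymphoma and between 0.38 and 0.67 in Rag2c/c p53-/- lymphoma when 1 library was left out. Leaving out 1 library put the members past the limma test at 25 to 65 in Atm-/- lymphoma (53 with all libraries) and at 10 to 39 in Rag2c/c p53-/- lymphoma (30), and the called members of Rag2c/c p53-/- lymphoma at 4 to 12 (10). Fewer samples enter such fits. With only the groups compared in the fit, 19 members passed in Rag2c/c p53-/- lymphoma. With depth as a covariate, 10 members were called in Atm-/- lymphoma (19 without it) and 6 in Rag2c/c p53-/- lymphoma, and 4 passed between the lymphomas (2 without it). Those added were Cox6b2 (-1.17, limma adjusted p = 0.0499) and Cox7b (0.45, adjusted p = 0.0438). With the 7 deeper libraries, 9 were called in Atm-/- lymphoma. The cause was not tested. WT replicates 1 and 3 are deeper than every lymphoma, so depth and group are partly joined. Over the named genes against WT thymus, leaving out 1 library took a gene out of those that passed the limma test 53 times, brought one in 5 times and left its side of the threshold as it was 670 times in Atm-/- lymphoma, and 36, 10 and 682 times in Rag2c/c p53-/- lymphoma. No paired analysis was possible because the lymphoma labels carry no replicate number shared with WT thymus.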

Other observations

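Another 7 members, picked out after their values were seen, were called higher in Atm-/- lymphoma, with log2 fold changes between 1.0 and 1.16 by limma. They were the complex I accessory and core genes Ndufa6 (1.01), Ndufa10 (1.05), Ndufa12 (1.0), Ndufb4 (1.05) and Ndufs7 (1.05), the complex III gene Uqcr11 (1.06) and the complex V gene Atp5j2 (1.16). In Rag2c/c p53-/- lymphoma the estimates were 0.92 for Ndufa6, 0.83 for Ndufa10, 0.99 for Ndufa12, 0.74 for Ndufb4, 0.69 for Ndufs7, 0.84 for Uqcr11 and 0.87 for Atp5j2, of which those of Ndufb4 and Ndufs7 did not pass (limma adjusted p = 0.0647 and 0.0619). Ndufa10 had the smallest standard error of these, 0.17, with 2134 to 2488 normalized counts in WT thymus, 4110 to 5465 in Atm-/- lymphoma and 2926 to 5022 in Rag2c/c p53-/- lymphoma.

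Genes outside the name rule are given beside the members, first for Atm-/- and then for Rag2c/c p53-/- lymphoma, as log2 fold changes by limma. Mdh2, malate dehydrogenase of the tricarboxylic acid cycle, rose by 0.96 and 0.97. Among assembly factors, Cox10, which makes heme for complex IV, rose by 0.76 and 0.92, Cox18, which inserts a mitochondrially coded subunit of complex IV, by 1.11 and 0.81, and Bcs1l, which works on complex III, by 1.01 and 1.03. Of the mitochondrial ribosomal protein genes, Mrpl38 rose by 1.45 and 1.51 and Mrps15 by 1.40 and 1.45. The ATP synthase inhibitor gene Atpif1 rose in Rag2c/c p53-/- lymphoma (0.99, limma adjusted p = 0.028, lost in 3 of the 23 alternatives), and its estimate in Atm-/- lymphoma, 0.68, did not pass (adjusted p = 0.102).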
